A study of Mus musculus with 12 samples.

Results

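The 9 genes described here are Cpt1a, Cpt2, Acadm, Acadl, Acadvl, Hadha, Hadhb, Pdk4 and Angptl4, which carry out mitochondrial fatty acid oxidation or are standard targets of the PPAR transcription factors. They were picked by gene symbol, with no measured value in the rule. All 9 are among the 24728 genes of the count table. Of these, 8 were among the 13414 that passed the filter on low counts. The exception was Pdk4.

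The cells were mouse bone-marrow derived macrophages, isolated as dTomato+ cells from ex vivo assays with brain tumor material. There were 4 groups of 3 libraries: Full Tumor, Tumor without Myelin, Myelin Alone and Control. Each group had 1 library of each of 3 mn numbers, 957, 958 and 016. The labels do not give strain, age, exposure time, what Control cells received, what mn stands for, or which of the study's 2 PDGF-B-driven glioma models supplied the tumor. Nothing states that the libraries of a group came from separate animals, so p-values describe the spread between these libraries, which may be technical.

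Long-chain fatty acids enter mitochondria as carnitine esters: CPT1 on the outer membrane makes the ester, a translocase carries it across, and CPT2 on the inner side turns it back into acyl-CoA. Acyl-CoA dehydrogenases of overlapping chain length preference then take the first oxidation step, and the mitochondrial trifunctional protein, built from the products of Hadha and Hadhb, takes the later ones for long chains. PPARs are nuclear receptors that bind fatty acids and pair with RXR. In macrophages that take up lipid, fatty acid ligands of PPARs are known to induce genes such as Angptl4, Plin2, Cpt1a and Pdk4. Myelin, the sheath around axons, is rich in lipid, and the series asks what macrophages do with it.

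No member passed edgeR's quasi-likelihood test in any comparison. With group as the only term, 0 of the 8 tested members had an adjusted p under 0.05 in each of 7 comparisons, which were 4 between groups, the averages for myelin and for tumor material, and their interaction. Adding the mn number as a block left this count at 0 in all 7. At an unadjusted p under 0.05 each comparison held 0 or 1 of the 8 with group only and 0 to 3 with the block. The 3 were Cpt1a, Acadl and Angptl4 in the myelin average, and the tumor material average held 0 in either fit. Of all 13414 tested genes, 153 to 775 had such a p with group only and 393 to 1702 with the block. The myelin average held 957 of them with the block and the tumor material average 1702. DESeq2 and limma-voom with group only called 0 members in each comparison. DESeq2 with the block called 1, Cpt1a in the myelin average, and limma-voom with the block called 0. Alternative settings with the block that kept all libraries, DESeq2 among them, called 21 to 125 of all genes in the myelin average.

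The background for these counts is low. Of all tested genes, group only called 0.0745% (10 of 13414) in the tumor material average and 0% in the other 6 comparisons. The block called 0.0373% for Myelin Alone against Control, 0.745% for Tumor without Myelin against Control, 0.813% for Full Tumor against Control and 0% for Full Tumor against Tumor without Myelin. It called 2.25% for the tumor material average, 0.112% for the myelin average and 0% for the interaction. A count of 0 among 8 members is thus near what all genes gave in each comparison.

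Hadha and Hadhb sit head to head, and the short stretch between the genes, by the coordinates below, is printed because it lies upstream of both subunits of the same enzyme. Hadha (ENSMUSG00000025745) covers chr5:30118304-30155162 and runs on the minus strand. Hadhb (ENSMUSG00000059447) covers chr5:30155248-30184593 on the plus strand. The 85 bases between them, chr5:30155163-30155247 on GRCm38.p6, are printed 5′ to 3′ on the plus strand from RefSeq's promoter table, with a GC box (GGGCGGG) in capitals.
Hadha-Hadhb interval: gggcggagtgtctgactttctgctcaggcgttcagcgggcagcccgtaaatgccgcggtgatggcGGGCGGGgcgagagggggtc
The interval had a GC content of 69.4% and 9 CpG dinucleotides, against a median GC content of 55.3% over 32851 promoter windows of 85 bases. A GC box on either strand occurred in 15.6% of those windows. A match of letters is a description and not a site of binding.

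The promoters of 8 members, 250 bases before to 50 after the start, were in the RefSeq table; the member without an entry was Angptl4. The PPAR element searched was the direct repeat AGGTCANAGGTCA, on both strands. It was in 0 of the 8 member promoters and in 13 of 32851 promoters (0.0396%). Its half-site AGGTCA, which each full repeat also contains, was in the promoters of Cpt1a, Acadm and Acadvl, and in 16.3% of all promoters. These windows are short, and elements elsewhere in a gene were not analysed here.

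Cpt1a encodes the liver form of carnitine palmitoyltransferase 1, the rate-limiting step of the shuttle (ENSMUSG00000024900, chr19:3322334-3385733, mm10). CPM here are counts scaled to a common library size after TMM normalization. By number 957, 958 and 016, Cpt1a stood at 144, 129 and 106 CPM in Control and at 178, 172 and 138 CPM in Myelin Alone. For Tumor without Myelin the values were 132, 111 and 123 CPM, and for Full Tumor 151, 163 and 151 CPM. Each library with myelin was above the library of the same number without it, in 6 of 6 pairs, and every Full Tumor library was above every Tumor without Myelin and every Control library. Myelin Alone and Control overlapped, as 016 with myelin was below 957 without.

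In order of level, group means for Cpt1a were 122 ± 10.4 CPM for Tumor without Myelin, 126 ± 19.0 for Control, 155 ± 6.88 for Full Tumor and 163 ± 21.4 for Myelin Alone (SD, n = 3). Neither the lower pair nor the upper pair of groups differed by more than the SD of its more variable group. The log2 fold change for the myelin average was 0.36 ± 0.11 (SE) with group only (edgeR adjusted p = 1.00) and 0.36 ± 0.08 with the block (edgeR adjusted p = 0.195, 95% interval 0.18 to 0.54). With the block it was 0.37 ± 0.12 for Myelin Alone against Control (edgeR adjusted p = 0.616) and 0.35 ± 0.12 for Full Tumor against Tumor without Myelin (edgeR adjusted p = 1.00). The interaction was −0.02 ± 0.16 (95% interval −0.38 to 0.34), so the design leaves a wide range for any difference in the myelin effect between the tumor settings. DESeq2 with the block gave 0.35 for the myelin average (DESeq2 adjusted p = 0.0131).

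Higher values in all 6 pairs with myelin occurred in 3.06% of the tested genes (411 of 13414) and in 2 of the 8 members, Cpt1a and Acadl. For tumor material the corresponding share was 4.17%, and 0 of the 8 members had it. The 3 libraries of each group did not overlap, in either direction, in 8.1% of genes for Full Tumor against Control and 5.02% for Full Tumor against Tumor without Myelin. They did not overlap in 5.78% for Myelin Alone against Control and 7.69% for Tumor without Myelin against Control. Among members, 1 (Cpt1a) did not overlap in the Full Tumor comparison with Control, 2 (Cpt1a and Acadl) in that with Tumor without Myelin, and 0 in the other comparisons.

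**Figure D1:**
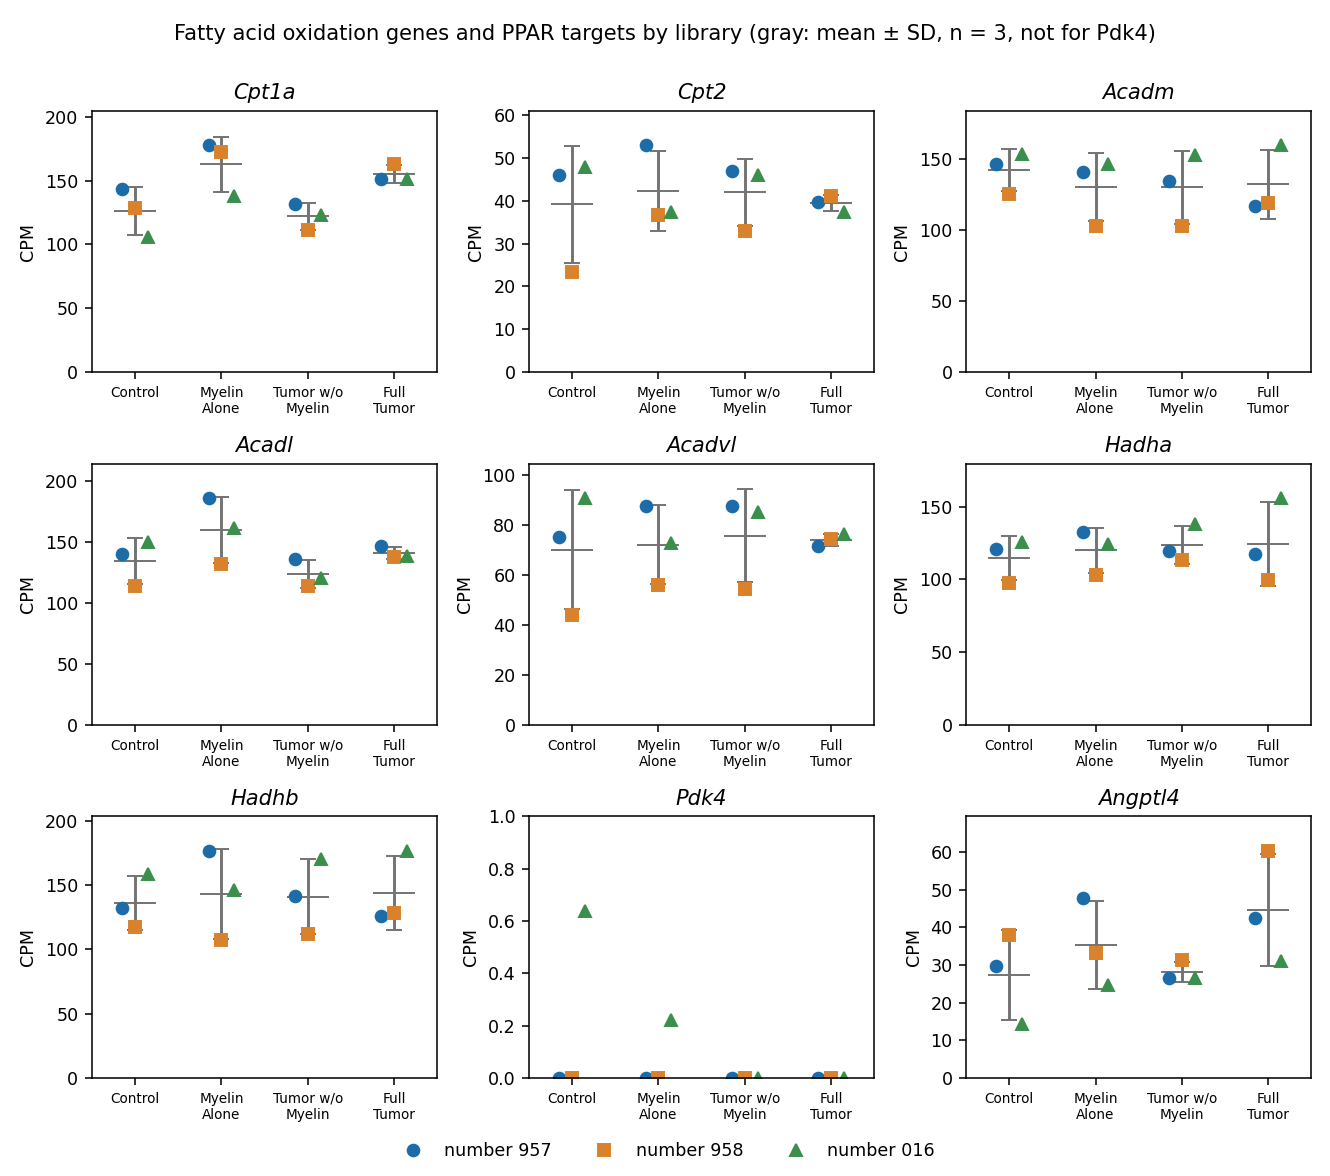
Each panel plots 1 gene, with CPM on the vertical axis from 0 and the 4 groups on the horizontal axis; points are single libraries, marked by mn number, and gray lines give the mean ± SD (n = 3), left out for Pdk4. Cpt1a in Full Tumor lies at 151 to 163 CPM, above the 111 to 132 CPM of Tumor without Myelin, while the squares of number 958 lie low for most of the oxidation genes.

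Cpt2, the inner-membrane carnitine palmitoyltransferase (ENSMUSG00000028607, chr4:107903981-107923610), had 46.1, 23.3 and 47.9 CPM in Control and 53.0, 36.6 and 37.3 CPM in Myelin Alone. Full Tumor had 39.8, 41.0 and 37.3 CPM, against 46.8, 32.9 and 46.0 CPM for Tumor without Myelin. The lowest library was Control 958, and the groups overlapped throughout. The fold change for the myelin average was 0.04 ± 0.15 with the block (95% interval −0.28 to 0.37, edgeR adjusted p = 0.992).

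The other genes of the shuttle gave no call either. Of 8 genes on the list, 7 were tested and 0 were called in any of the 7 comparisons with either edgeR fit. In the myelin average 3 were higher and 4 lower, with a median of −0.05 against 0.01 for all tested genes. Crat, carnitine acetyltransferase, was at 0.12 ± 0.14 in that average (edgeR adjusted p = 0.924), and stood at 60.2 CPM in Control and 83.1 CPM in Full Tumor (0.47 ± 0.19 with the block, edgeR adjusted p = 0.438). The muscle isoform gene Cpt1b did not pass the filter, with at most 1 count in a library.

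The 3 acyl-CoA dehydrogenases among the members differ in the chain lengths they prefer: very long for Acadvl, long for Acadl and medium for Acadm. Acadl (ENSMUSG00000026003, chr1:66830839-66863277) was measured at 140, 114 and 150 CPM in Control and at 186, 132 and 161 CPM in Myelin Alone. Full Tumor had 147, 138 and 138 CPM, and Tumor without Myelin 136, 114 and 120.5 CPM. As for Cpt1a, the library with myelin was the higher in 6 of 6 pairs, and Full Tumor lay above Tumor without Myelin with no overlap, but by less than 2 CPM between the nearest libraries.

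For Acadl the myelin average was 0.22 ± 0.08 with the block (95% interval 0.05 to 0.39, edgeR adjusted p = 0.510). Without the block it was 0.22 ± 0.11 (edgeR adjusted p = 1.00). The tumor material average was −0.15 ± 0.08 with the block (edgeR adjusted p = 0.477). Full Tumor against Control, where both were added, gave 0.07 ± 0.11 (edgeR adjusted p = 0.896).

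Acadm (ENSMUSG00000062908, chr3:153922357-153944632) had 147, 125 and 154 CPM in Control and 141, 103 and 146 CPM in Myelin Alone. Tumor without Myelin had 134, 103 and 153 CPM, and Full Tumor 117, 119 and 160 CPM. It was the 1 member below its same-numbered Control library in all 3 pairs for Myelin Alone and likewise for Tumor without Myelin, 2 comparisons that share the Control libraries. Of all tested genes, 12.2% and 15.4% were lower in all 3 pairs of these comparisons, a share near 1 of 8. The fold changes were −0.14 ± 0.11 in both (edgeR adjusted p = 0.963 and 0.777 with the block).

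Acadvl (ENSMUSG00000018574, chr11:70010183-70015411) had 75.3, 44.2 and 91.0 CPM in Control and 87.7, 56.2 and 72.9 CPM in Myelin Alone. Full Tumor had 71.6, 74.4 and 76.3 CPM, and Tumor without Myelin 87.8, 54.7 and 85.2 CPM. The SD between numbers was 2.36 CPM in Full Tumor and 15.7 to 23.8 CPM in the other 3 groups (n = 3). The difference in spread was not tested. The myelin average was 0.04 ± 0.12 with the block (edgeR adjusted p = 0.989). Acadvl shares 2119 bases with Dvl2, which averaged 8.99 CPM, and without a stated strand setting reads of the shared part cannot be assigned.

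Hadha encodes the alpha subunit of the trifunctional protein, with the hydratase and the hydroxyacyl-CoA dehydrogenase activities, and Hadhb the beta subunit, with the thiolase. Hadha had 121, 97.3 and 126 CPM in Control, 133, 103 and 125 with Myelin Alone, 118, 99.7 and 156 with Full Tumor and 119, 114 and 138 with Tumor without Myelin. Hadhb had 132, 117 and 159 CPM in Control, 177, 107 and 146 with Myelin Alone, 126, 128 and 177 with Full Tumor and 141, 112 and 170 with Tumor without Myelin. All groups overlapped for both genes. For the myelin average the block gave 0.03 ± 0.08 for Hadha (95% interval −0.14 to 0.21) and 0.05 ± 0.10 for Hadhb (95% interval −0.16 to 0.27), at edgeR adjusted p of 0.983 and 0.970. For tumor material it gave 0.08 ± 0.08 and 0.03 ± 0.10 (edgeR adjusted p = 0.769 and 0.947).

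Over the 12 libraries there were 0.750 to 1.01 Hadha counts per Hadhb count, with a median of 0.847. Pearson's r of log2 CPM was 0.860 for Hadha and Hadhb, the genes on either side of the printed interval, and 0.515 once the mean of each mn number was removed. Hadhb and Acadm, on different chromosomes, were at least as close (r = 0.875, and 0.561 within numbers). Cpt2 and Acadvl were the closest members within numbers (r = 0.916 over 12 libraries), and Control 958 was the lowest library for both. Libraries share numbers and groups, so these r values are descriptions.

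**Figure D2:**
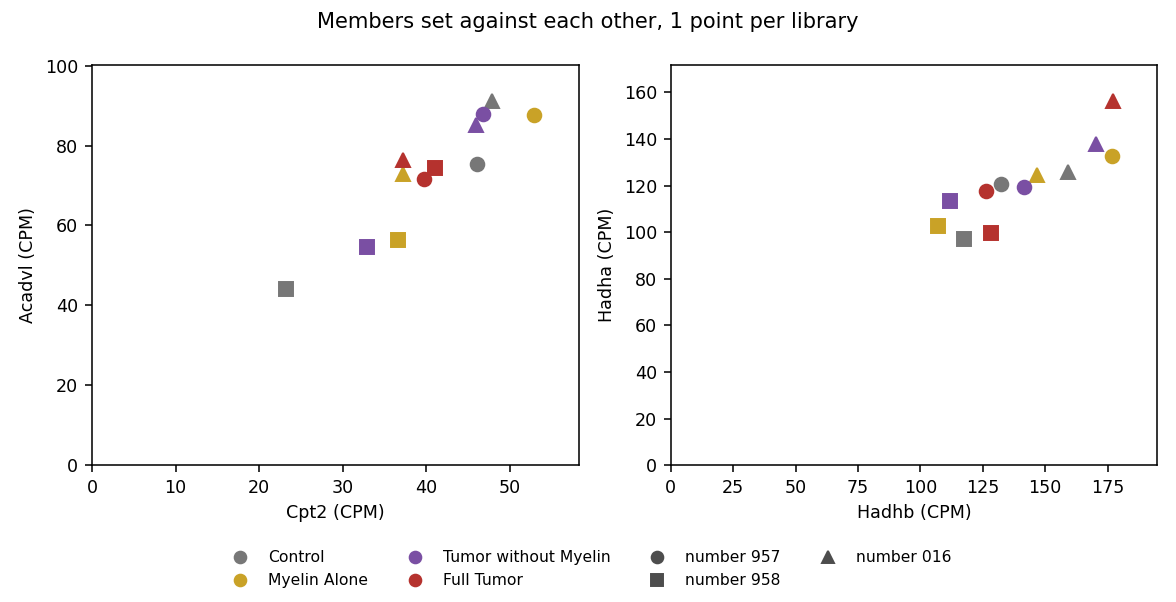
Each point is 1 library, placed by the CPM of 2 members (left Cpt2 against Acadvl, right Hadhb against Hadha), with color for the group and shape for the mn number; both axes start at 0. Control 958 is the lowest point on the left at 23.3 and 44.2 CPM, and on the right the squares of number 958 cluster at the low end.

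Most oxidation genes had their lowest mean in the same mn number. The mean of the 4 libraries of number 958 was the lowest of the 3 numbers for Cpt2 (33.5 CPM), Acadm (112), Acadl (124), Acadvl (57.4), Hadha (103) and Hadhb (116). Number 016 had the lowest mean for Cpt1a (130 CPM, against 151 in 957 and 144 in 958) and for Angptl4 (24.2, against 36.7 and 40.8). What differs between the numbers was not tested, as the labels give no meaning for them.

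The wider list of mitochondrial β-oxidation, 17 genes that were all tested, had 0 calls in any comparison with either edgeR fit. In the myelin average 15 of 17 were higher with the block, at a median of 0.07 against 0.01 for all tested genes. Echs1, the short-chain enoyl-CoA hydratase, averaged 99.4 CPM in Control and 122 in Myelin Alone, and 119 in Full Tumor against 100.1 in Tumor without Myelin. Its myelin average was 0.27 ± 0.07 (edgeR adjusted p = 0.247), and it was higher with myelin in 6 of 6 pairs. Acaa2, the mitochondrial thiolase, was at 0.26 ± 0.09 (edgeR adjusted p = 0.528). For tumor material 8 of the 17 were higher and 9 lower, with a median of −0.02.

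Peroxisomes shorten very long chains, which are abundant in myelin lipids. Of 13 genes of the peroxisomal list, 12 were tested and 0 were called in any comparison with either edgeR fit. In the tumor material average 11 were higher and 1 lower (median 0.09 against −0.002 for all tested genes). Full Tumor against Control also had 11 higher and 1 lower (median 0.11). In the myelin average 8 were higher and 4 lower (median 0.05). The transporter gene Abcd2 was at 0.17 ± 0.32 (edgeR adjusted p = 0.972) and Hsd17b4, the bifunctional enzyme, at −0.15 ± 0.11 (edgeR adjusted p = 0.882).

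Fatty acid activation by acyl-CoA synthetases precedes the shuttle, and malonyl-CoA, made by acetyl-CoA carboxylase, inhibits CPT1. Among 7 tested of 8 activation genes 0 were called, and among 6 tested of 7 genes of malonyl-CoA control 0 were called, in every comparison and with both edgeR fits. Acsl5 was at −0.21 ± 0.10 and Acsl4 at −0.13 ± 0.12 in the myelin average with the block (edgeR adjusted p = 0.736 and 0.911). Prkab1, a regulatory subunit of AMPK, was at −0.19 ± 0.11, and Prkaa1, a catalytic subunit, at 0.05 ± 0.15 (edgeR adjusted p = 0.834 and 0.986).

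Pdk4 encodes a kinase that shuts down the pyruvate dehydrogenase complex when fat is burned (ENSMUSG00000019577, chr6:5483351-5496309). It had 13 counts (0.638 CPM) in Control 016 and 4 counts (0.222 CPM) in Myelin Alone 016, and 0 counts in the other 10 libraries. A count of 0 allows up to 3 counts, or 0.142 to 0.182 CPM depending on the library. Pdk4 was thus near the detection limit at this depth and was not tested. The 2 libraries with Pdk4 counts also had the highest sums of 10 neutrophil markers, 305 and 145 CPM against 10.4 to 114 in the others. By group these sums were 38.9 to 305 CPM in Control, 23.2 to 145 in Myelin Alone, 16.0 to 90.5 in Full Tumor and 10.4 to 114 in Tumor without Myelin. In Myelin Alone against Control 9 of 9 tested neutrophil markers were lower with the block (median −1.21), with 0 called. For Mpo, Elane, Prtn3 and Ctsg this rested mostly on number 016. Control 016 had 2270, 834, 375 and 469 counts of them, and Control 957 and 958 had 0 to 20. In number 957 Ltf went from 0 counts in Control to 103 in Myelin Alone and Camp from 0 to 12. The other tested markers were lower there or at 0 in both libraries. For Tumor without Myelin and for Full Tumor, each against Control, 7 were lower and 2 higher with the block. In both of these, and in the tumor material average, 1 was called lower. The part of neutrophils in the Pdk4 counts and in the other members was not tested.

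The other kinases of this family were detected in every group. Group means were 55.4 to 64.2 CPM for Pdk1, 19.3 to 26.3 for Pdk2 and 24.7 to 33.7 for Pdk3. Of the 12 genes of the pyruvate dehydrogenase complex, its kinases and its phosphatases, 11 were tested and 0 were called in any comparison with either edgeR fit. The phosphatase gene Pdp2 was at −0.33 ± 0.14 and Pdp1 at 0.20 ± 0.12 in the myelin average with the block (edgeR adjusted p = 0.689 and 0.825), and Pdp2 was lower with myelin in 6 of 6 pairs.

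Angptl4, a secreted inhibitor of lipoprotein lipase (ENSMUSG00000002289, chr17:33773750-33781830), varied more than any other tested member. Its values were 29.7, 37.9 and 14.4 CPM in Control and 47.8, 33.3 and 24.7 CPM in Myelin Alone. Full Tumor had 42.5, 60.4 and 31.0 CPM, against 26.6, 31.4 and 26.5 CPM for Tumor without Myelin. The highest library was 4.19 times the lowest, where the ratio was 1.56 to 2.28 for the other 7. Full Tumor was the higher in 3 of 3 pairs with Control and in 3 of 3 with Tumor without Myelin, and groups overlapped in every comparison.

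In order of level, its means were 27.4 ± 11.9 CPM in Control, 28.2 ± 2.77 in Tumor without Myelin, 35.3 ± 11.7 in Myelin Alone and 44.7 ± 14.8 in Full Tumor (SD, n = 3), and neighbors in that order differed by less than the SD of the more variable group. The myelin average was 0.51 ± 0.17 with the block (95% interval 0.14 to 0.88, edgeR adjusted p = 0.471). Without the block it was 0.51 ± 0.25 (edgeR adjusted p = 1.00). Full Tumor against Control gave 0.74 ± 0.24 with the block (95% interval 0.22 to 1.27, edgeR adjusted p = 0.263). Myelin Alone against Control gave 0.42 ± 0.24 (edgeR adjusted p = 0.895). Pairs with myelin were higher in 5 of 6, the exception being Myelin Alone 958.

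**Figure D3:**
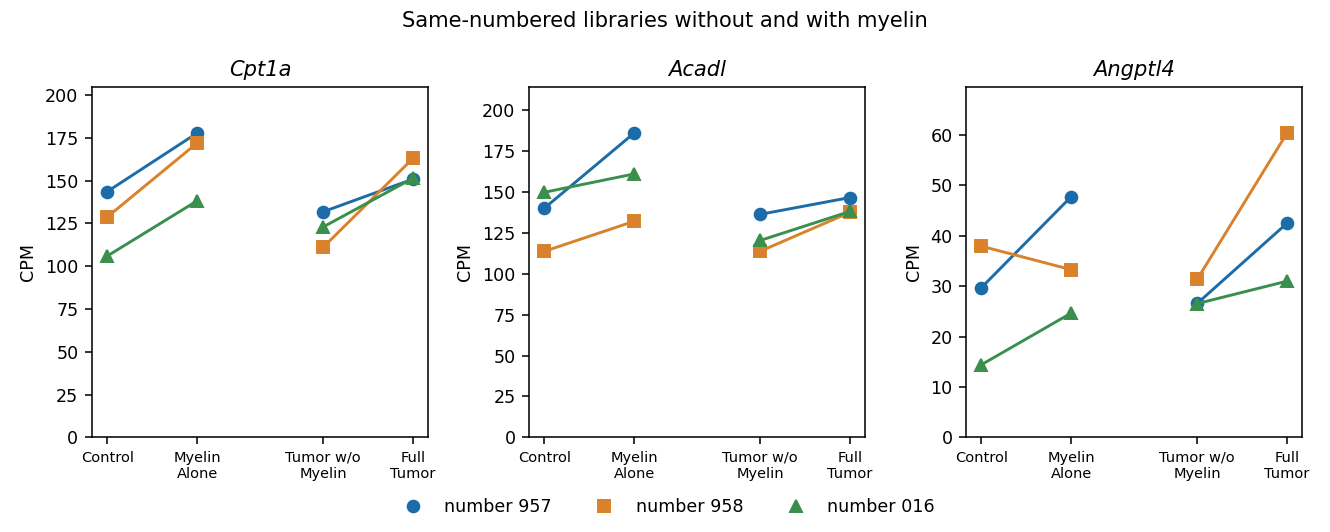
Lines join libraries of the same mn number without and with myelin, in CPM, for Cpt1a, Acadl and Angptl4; in each panel the left pair of columns is Control and Myelin Alone and the right pair Tumor without Myelin and Full Tumor. For Cpt1a and Acadl 6 of 6 lines go up, and for Angptl4 5 of 6.

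**Figure D4:**
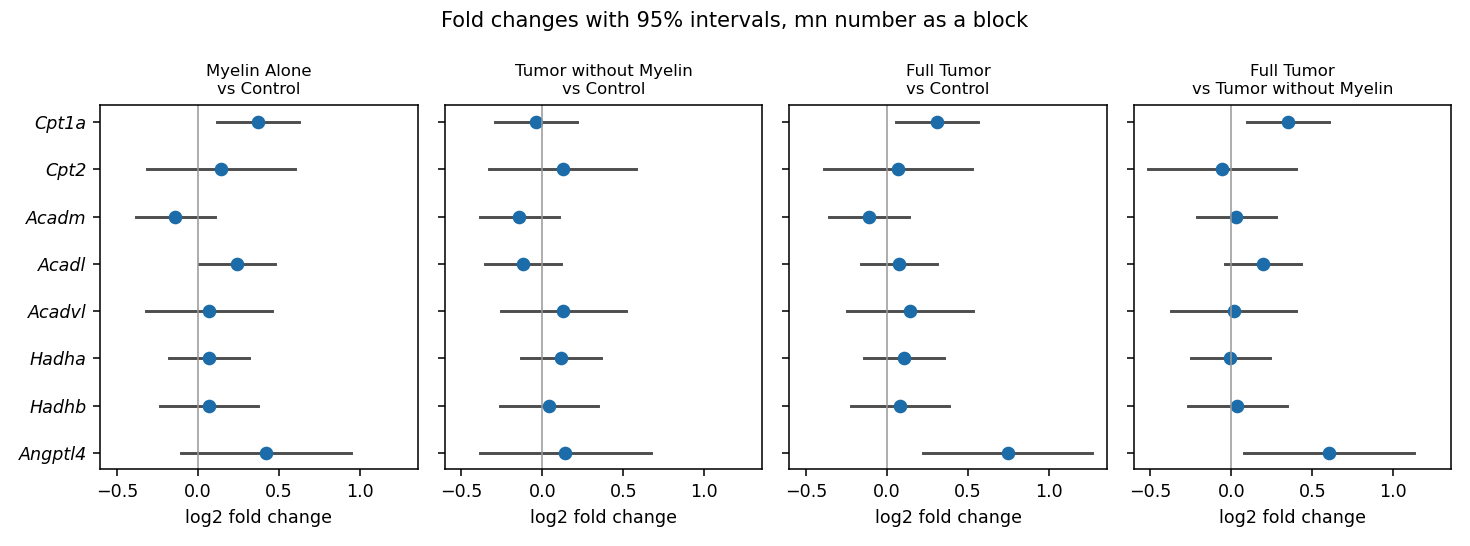
Points are log2 fold changes of the 8 tested members in 4 comparisons between groups, and lines their 95% intervals from edgeR with the mn number as a block, before adjustment for many genes. Intervals lie above 0 for Cpt1a and Acadl in Myelin Alone against Control, and for Cpt1a and Angptl4 in Full Tumor against Control and against Tumor without Myelin; 0 of these values passed after adjustment.

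The lipase that Angptl4 inhibits was abundant. Lpl averaged 3924 CPM in Full Tumor, 4251 in Myelin Alone, 4356 in Tumor without Myelin and 4576 in Control (−0.22 for Full Tumor against Control with the block, edgeR adjusted p = 0.360). Of the 10 genes listed for angiopoietin-like proteins and lipoprotein lipase, 6 were tested and 0 were called in any comparison with either edgeR fit. Angptl2 was at 225 CPM in Control and 352 in Myelin Alone, with a myelin average of 0.48 ± 0.09 with the block (edgeR adjusted p = 0.0938), and it was called there by limma-voom and by DESeq2 with the block.

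Among the other PPAR targets edgeR called 1 gene, and only with the block. Plin2, which encodes a coat protein of lipid droplets, was at 2176, 1876 and 2617 CPM in Control and 3030, 2723 and 3437 CPM in Full Tumor. Myelin Alone had 2934, 2315 and 2916 CPM, and Tumor without Myelin 2509, 2200 and 2872 CPM. Within each number Full Tumor was the highest of the 4 groups and Control the lowest. The myelin average for Plin2 was 0.29 ± 0.05 with the block (edgeR adjusted p = 0.0535). Full Tumor against Control gave 0.47 ± 0.07 with the block (edgeR adjusted p = 0.00976), from 2223 ± 373 to 3064 ± 358 CPM (SD, n = 3), and edgeR with group only did not call it (edgeR adjusted p = 0.964). Without Control 957, Control 958 or Full Tumor 958 the call with the block was lost, at fold changes of 0.43 to 0.51 over all 12 libraries left out in turn and an adjusted p of at most 0.0747.

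Of the 17 genes listed as other PPAR targets, Pdk4 and Angptl4 included, 12 were tested, and by edgeR with the block Plin2 was the 1 called, in 1 of 7 comparisons. The tested genes had a median of 0.29 in Full Tumor against Control, where 8 were higher and 4 lower. In the myelin average the median was 0.05, with 6 higher and 6 lower. Plin2, Fabp4 and Hilpda were each higher with myelin in 6 of 6 pairs, as were 3.06% of all tested genes. Fabp4, a fatty acid carrier of macrophages, was at 142 CPM in Control and 198 in Full Tumor (0.43 with the block, edgeR adjusted p = 0.293). Hilpda, an inhibitor of droplet lipolysis, had a myelin average of 0.51 ± 0.20 (edgeR adjusted p = 0.620), and Cd36, a fatty acid and lipoprotein receptor, was at 2350 CPM in Control and 2628 in Full Tumor (edgeR adjusted p = 0.702).

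Of 12 genes for the receptors and their partners, 9 were tested and 0 were called in any comparison with either edgeR fit. Pparg was the best detected PPAR among those tested, with means of 67.4 CPM in Full Tumor, 72.7 in Myelin Alone, 80.6 in Tumor without Myelin and 99.6 in Control (−0.36 ± 0.12 in the myelin average with the block, edgeR adjusted p = 0.492). Ppard stood at 3.15 to 6.14 CPM. Rxra, the partner receptor, averaged 28.2 CPM in Control and 46.7 in Full Tumor (0.75 with the block, edgeR adjusted p = 0.0695), and its myelin average was 0.39 ± 0.12 (edgeR adjusted p = 0.394). Ppara was not analysed here.

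**Figure D5:**
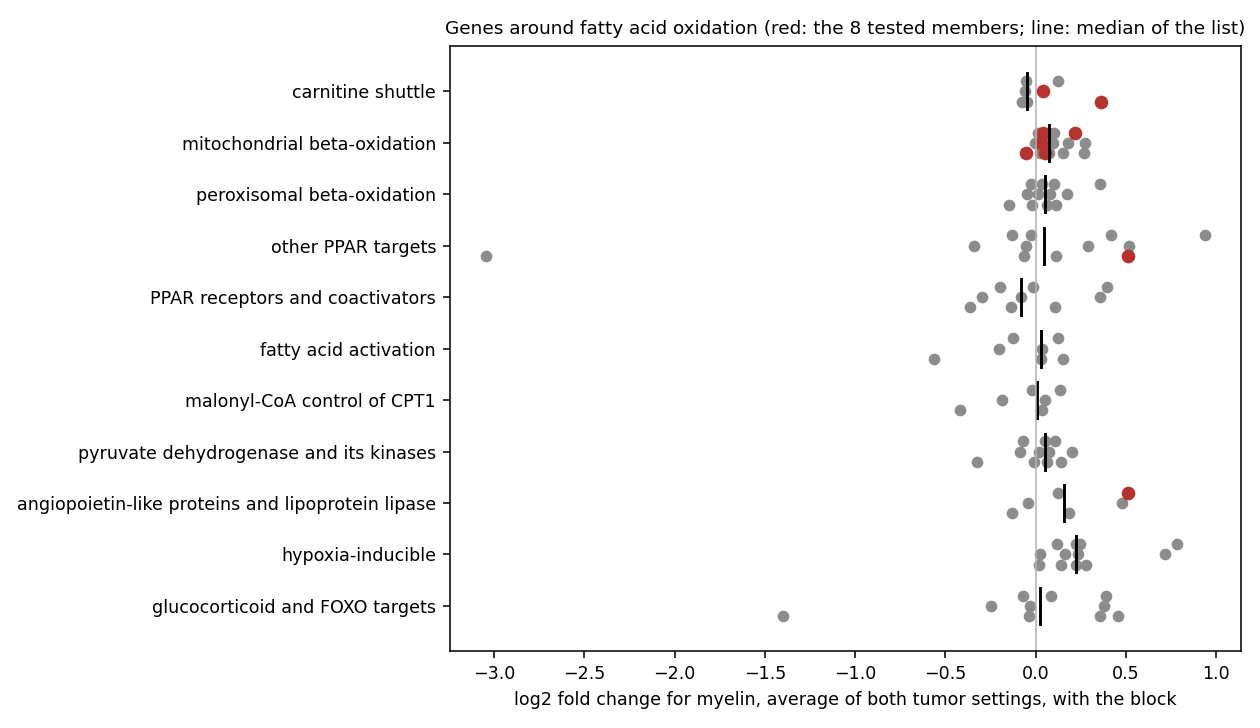
Each point is the log2 fold change of 1 tested gene for myelin, averaged over both tumor settings, from edgeR with the mn number as a block; rows are gene lists, red points are members and black lines are list medians. Medians lie between −0.08 and 0.22, with the hypoxia-inducible list the highest.

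Angptl4 and Pdk4 also answer to hypoxia, glucocorticoids and FOXO factors, so genes of those responses were set beside them. Of 14 hypoxia-inducible genes 12 were tested. In the myelin average with the block 12 of 12 were higher, with a median of 0.22 against 0.01 for all tested genes, and 0 were called with either edgeR fit. In the tumor material average 5 were higher and 7 lower. The part of these responses in the members' values was not tested. Pfkfb3, a regulator of glycolysis, was at 0.78 ± 0.21 in it with the block (edgeR adjusted p = 0.314).

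The lists held 98 tested genes besides the members, and edgeR with group only called 0 of them in each comparison, with 0 to 5 at an unadjusted p under 0.05. The block called 0 of 98 in the myelin average, with 20 at an unadjusted p under 0.05, against 957 of all 13414 tested genes there. There limma-voom with the block called Angptl2 and Plin2, and DESeq2 with the block called these and Echs1, Fabp4 and Pfkfb3, all higher with myelin. For Full Tumor against Control both tools with the block called Plin2 and Rxra higher. DESeq2 also called Pfkfb3 higher, and Klf9 and Pparg lower. In the tumor material average both called Angptl6, Klf9 and Ndrg1 lower, and DESeq2 also called Plin2 and Sesn1 higher. For Tumor without Myelin against Control both called Klf9 and Ndrg1 lower, and for Myelin Alone against Control DESeq2 called Angptl2 higher. Alternative settings with the block that kept all libraries, both tools among them, called 21 to 125 of all genes in the myelin average. They called 101 to 343 for Full Tumor, 93 to 321 for Tumor without Myelin and 6 to 69 for Myelin Alone, each against Control. In the tumor material average they called 300 to 613. With group only, limma-voom called 0 of the 98 in each comparison, and DESeq2 called Klf9 in Tumor without Myelin against Control and Klf9 and Ndrg1 in the tumor material average.

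Ndrg1, a stress-induced gene of the hypoxia list, fell with tumor material. Control had 46.0, 39.0 and 49.8 CPM and Myelin Alone 56.2, 37.5 and 55.1 CPM. Full Tumor had 32.3, 29.6 and 41.8 CPM, and Tumor without Myelin 28.2, 20.4 and 28.7 CPM. With the block it fell by 0.66 ± 0.10 on the log2 scale in the tumor material average (edgeR adjusted p = 0.00512) and by 0.81 ± 0.14 for Tumor without Myelin against Control (edgeR adjusted p = 0.0243), and with group only the adjusted p were 0.192 and 0.728. The first call held without any 1 of the 12 libraries; the other was lost without Control or Tumor without Myelin 957, without either of these groups' 958 libraries, or without Tumor without Myelin 016.

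Klf9, a glucocorticoid-induced transcription factor, had 24.2, 17.8 and 21.1 CPM in Control and 13.6, 21.0 and 16.0 CPM in Myelin Alone. Full Tumor had 13.6, 10.8 and 10.4 CPM, and Tumor without Myelin 10.9, 9.71 and 8.69 CPM. With the block Klf9 fell by 0.83 ± 0.16 in the tumor material average (edgeR adjusted p = 0.0189, and 0.132 with group only). That call was lost without Control 957, Full Tumor 958, Myelin Alone 958 or any 1 of the Tumor without Myelin libraries. Of the 10 genes of the glucocorticoid and FOXO list it was the 1 called by edgeR, and 5 were higher and 5 lower in the myelin average, with Foxo1 at 0.39 ± 0.21 and Sgk1 at 0.38 ± 0.13 (edgeR adjusted p = 0.769 and 0.510).

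Per kilobase of the longest protein-coding transcript, levels over the 12 libraries ranked Acadl first at 72.9 ± 10.6 CPM per kb (SD, n = 12), then Hadhb (68.9 ± 12.1) and Acadm (65.2 ± 9.68). Acadvl (33.7 ± 6.78), Cpt1a (32.8 ± 5.28) and Hadha (30.0 ± 4.19) followed. Cpt2 had 17.1 ± 3.37, Angptl4 10.2 ± 3.64 and Pdk4 0.0206 CPM per kb. Neighbors within the first 3 and within the next 3 differed by less than either SD. With all annotated exons as the length, Hadhb dropped to 21.4 and Hadha to 13.8 CPM per kb, so their places depend on the transcript assumed.

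The genes most like each member were sought by Pearson's r of log2 CPM after the mean of each number was removed, over 12 libraries and 8256 genes of at least 10 CPM on average. They were Eif3m and Npc1 for Cpt1a (r = 0.951 and 0.933), B3galt6 and Acadvl for Cpt2 (0.947 and 0.916), and Zadh2 and Rps6kc1 for Acadm (0.960 and 0.946). They were Gpr137b-ps and Sqstm1 for Acadl (0.953 and 0.938), Acad9 and Naa20 for Acadvl (0.922 and 0.921), and Gypc and Plekha2 for Hadha (0.906 and 0.879). For Hadhb they were Tbk1 and Pon2 (0.958 and 0.934), and for Angptl4 Fam20b and Pacs1 (0.968 and 0.919). Other members were therefore the nearest genes in 1 case, Acadvl for Cpt2. Cpt1a and Angptl4 had r = 0.711 with each other, and Cpt1a and Acadm r = 0.07. The highest of 8256 values is large by selection.

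Libraries held 17071673 to 21689624 counts, and the 8 tested members had 7521 to 31693 counts each in all. Macrophage markers were present, 8 of 8, and summed to 13291 to 15526 CPM in Control and Myelin Alone and to 14907 to 18162 CPM in the groups with tumor material, the direction opposite to Ndrg1 and Klf9. In the tumor material average 8 of 8 were higher with the block and 3 were called, against 0 called with group only. Endothelial markers, 6 of 8 with values, summed to 47.7 to 53.0 CPM in Tumor without Myelin, below the 55.5 to 76.3 CPM of all libraries of the other groups. One of them, Vwf, was called lower with tumor material (−0.69 ± 0.12 with the block, edgeR adjusted p = 0.0130), the same direction as Ndrg1 and Klf9. Of the 5 tested endothelial markers, 4 were higher and 1, Vwf, lower in the tumor material average with the block (median 0.24). Vwf thus went against the other tested markers of its list.

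Oligodendrocyte markers, 5 of 8 with values, summed to 111 to 136 CPM in Control, 121 to 129 in Myelin Alone, 129 to 158 in Tumor without Myelin and 127 to 161 in Full Tumor. One of these, Mobp, which encodes a protein of the myelin sheath, followed the myelin label: it had 10, 8 and 8 counts in Myelin Alone, 16, 16 and 13 in Full Tumor and 0 in the 6 libraries without myelin. At so few counts it was not called in the myelin average (edgeR adjusted p = 0.124 with the block). Mog, Cldn11 and Mal were not analysed here.

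The sum of astrocyte markers, 7 of 8 with values, was lower in Full Tumor (36.9 to 107 CPM) than in Control (111 to 143 CPM) with no overlap, and lay at 83.4 to 122 CPM in Myelin Alone and 76.1 to 123 CPM in Tumor without Myelin. This sum moved opposite to Plin2, Cpt1a and Angptl4. The markers did not move together. Of 3 tested, 1 was higher and 2 lower in Full Tumor against Control with the block (median −0.56). In Tumor without Myelin against Control 2 were higher and 1 lower (median 0.51), and 0 were called in either. Single tested genes did not overlap, in either direction, in 8.1% of cases for Full Tumor against Control. Tumor progenitor markers summed to 37.1 to 142 CPM and B cell markers to 1.77 to 50.0 CPM, with overlapping ranges in the 4 groups. T cell markers summed to at most 7.93 CPM and adipocyte and fibroblast markers to at most 19.7 CPM. The part of other cells in the members' values was not tested, and in bulk RNA a change in cell types and a change per cell cannot be told apart.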

How the data were processed

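Messenger RNA of sorted macrophages was sequenced in 12 libraries, with cDNA primed by oligo-dT, per the labels' protocols. The authors deposited raw counts per gene, whole numbers without normalization. Coordinates are mm10, per the submitters' processing notes; aligner, counting program and strandedness were not given in the sources used here. Everything else was computed here: edgeR 4.0.16 in R 4.3.3, TMM factors (0.965 to 1.06), filterByExpr, and a quasi-likelihood fit of all 12 libraries on group. P-values are two-sided with Benjamini-Hochberg adjustment over 13414 genes, threshold 0.05. Standard errors were derived as the size of the log2 fold change divided by the root of the F statistic.

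Deviations from group means correlated above 0.1 in 18 of 18 same-numbered pairs (0.120 to 0.631), so the mn number pairs the libraries and was added as a block in a further fit. Paired values use log2 of CPM plus 0.5. Alternatives were library totals, RLE factors, no filter, DESeq2 1.42.0, limma-voom (limma 3.58.1), only the groups compared, and leaving out each library or number. Floors and intervals cover counting error or replicate spread only. Lengths are from GENCODE vM21 exons.

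Members and lists were chosen with earlier results of these data known. All members are named; of each list, those edgeR called in a comparison are named for it, and for the myelin average, where none was called, the 2 of at least 10 CPM with the largest fold change, members counted. Cpt1b, Pdk1, Pdk2, Pdk3, Lpl, Fabp4, Cd36, Ppard, Vwf and Mobp, and genes called by another tool alone, fall outside this rule and were chosen after their values were seen.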

Additional observations from a re-analysis of the deposited data

How the results depend on the processing

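The count of members called was 0 of 8 with group only and with the replicate block in all 7 comparisons, under library totals, no filter, limma-voom and each library or number left out (lowest and highest count 0). The exception was DESeq2 with the replicate block in the myelin average, which called 1 member, Cpt1a; the cause was not tested. Of 2272 recomputed member values, 54 moved by more than 1 standard error and 258 changed sign, 0 of them called. The pairing by mn number lowered the biological coefficient of variation from 0.414 to 0.266 and raised the genes called from 0 to 5, 100, 109 and 15 against Control for Myelin Alone, for Tumor without Myelin and for Full Tumor, and in the myelin average, and from 10 to 302 for tumor material. Over all alternatives these counts ran, with the block, from 0 to 69, 4 to 321, 1 to 343, 0 to 125 and 29 to 613. Cpt1a in the myelin average stayed at 0.29 to 0.41 with any library or number left out. By edgeR, calls of Plin2, Ndrg1 and Klf9 rest on the block. Leaving out all libraries of 1 number ended them in 2 of 3 cases for Plin2 and for Ndrg1 with tumor material, and in 3 of 3 for Klf9 and for Ndrg1 in Tumor without Myelin against Control; these genes' alternatives were chosen after seeing the data. With 3 libraries a group, the 95% interval for Angptl4 ran from 0.22 to 1.27 in Full Tumor against Control.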
